A study of Drosophila melanogaster with 2 samples.

Results

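Peaks upstream of one-directional promoters are sites where the sunspot (ssp) fusion protein sat just ahead of the start of a gene, away from the start shared by a divergent pair. They were taken from the combined peak list of both replicates as the summits 0 to 500 bp upstream of the nearest transcription start site (TSS) of a protein-coding gene. Summits within 500 bp of the starts of a divergent pair of genes, at most 1000 bp apart, were left out. The rule kept 1221 of the 4914 peaks on the arms 2L, 2R, 3L, 3R, 4 and X (24.8%), and these lay at 1134 genes. The other peaks were 897 at divergent promoters, 220 just downstream of a TSS and 2576 farther than 500 bp.

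The study used chromatin immunoprecipitation and sequencing (ChIP-seq) on whole Drosophila melanogaster embryos of 0 to 24 h. The flies were transgenic and made ssp fused to enhanced green fluorescent protein, which was pulled down with an antibody to that protein. The 2 biological replicates formed 1 group, ssp-eGFP embryo, with no other genotype, treatment or time point, and a control library named in the labels is not analysed here. All embryonic tissues and stages were pooled in each replicate, so a peak says nothing of the cells it came from, and a weak signal in all cells cannot be told apart from a strong signal in few.

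A gene's promoter is the stretch around its TSS where RNA polymerase II assembles, and many fly genes with activity in most cells carry sites for architectural and promoter proteins such as Dref and BEAF-32 there. Fly genes often sit head to head and share the DNA between them. At a one-directional promoter the upstream DNA can in most cases be assigned to 1 gene. Earlier work on sunspot linked it to Wingless signalling and to the cell cycle factor E2f1.

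The DNA under the strongest peaks is shown because short sequences in it went with high signal. The 12 strongest that may be shown are given on the strand of their gene, from 50 bases before the summit to 50 after it or to the last base before the TSS, so that the summit is base 51. Coordinates and sequence are of dm6, from the RefSeq genome. Capitals mark TGTGAA (with the G before it where it is part of GTGTGAA), then GTGGAA and also CGATA, on either strand.
l(3)80Fg, chr3L:26014180-26014280, minus strand: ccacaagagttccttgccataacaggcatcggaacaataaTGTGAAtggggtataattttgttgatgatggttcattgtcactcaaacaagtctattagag
MED21, chr3L:25115947-25116029, minus strand: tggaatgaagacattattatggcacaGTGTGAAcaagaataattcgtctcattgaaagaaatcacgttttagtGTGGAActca
CG40045, chr3L:24028400-24028500, plus strand: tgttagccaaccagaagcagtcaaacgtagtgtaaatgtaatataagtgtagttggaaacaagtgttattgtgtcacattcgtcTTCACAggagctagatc
Gyf, chr4:867065-867165, minus strand: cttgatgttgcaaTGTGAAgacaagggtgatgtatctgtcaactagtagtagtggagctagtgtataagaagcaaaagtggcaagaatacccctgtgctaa
Clamp, chr2L:22169210-22169310, minus strand: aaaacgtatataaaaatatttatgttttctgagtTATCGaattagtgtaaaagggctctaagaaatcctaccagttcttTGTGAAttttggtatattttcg
ND-AGGG, chr3L:24976139-24976239, plus strand: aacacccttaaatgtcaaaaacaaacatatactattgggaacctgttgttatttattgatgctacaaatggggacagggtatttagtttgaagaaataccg
Hcf, chr4:359819-359919, plus strand: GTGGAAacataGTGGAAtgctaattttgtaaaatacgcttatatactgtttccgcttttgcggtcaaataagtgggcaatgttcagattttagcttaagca
Crk, chr4:210149-210223, plus strand: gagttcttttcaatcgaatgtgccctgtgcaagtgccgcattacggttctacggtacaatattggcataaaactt
Alg-2, chr3R:3623024-3623124, plus strand: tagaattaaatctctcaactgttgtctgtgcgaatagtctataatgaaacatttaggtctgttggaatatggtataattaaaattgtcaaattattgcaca
UQCR-11, chr3L:25120607-25120707, plus strand: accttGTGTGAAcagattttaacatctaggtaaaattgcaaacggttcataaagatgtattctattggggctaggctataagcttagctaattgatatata
CG40228, chr3L:27083932-27084032, minus strand: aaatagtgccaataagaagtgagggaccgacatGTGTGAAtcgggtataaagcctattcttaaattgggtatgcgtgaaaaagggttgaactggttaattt
PlexB, chr4:43782-43882, minus strand: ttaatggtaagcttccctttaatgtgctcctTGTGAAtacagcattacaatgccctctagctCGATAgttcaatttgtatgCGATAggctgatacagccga

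Of these 12 stretches, 9 held TGTGAA or GTGGAA, mostly reading towards the gene, and ND-AGGG, Crk and Alg-2 held neither. These sequences were picked after the values were seen, by their frequency in the strong peaks, and they are not those with the largest difference by signal. Their shares among the peaks are given with the other sequence motifs further on.

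The labelled position held for most peaks and not for all. In 321 of the 1221 (26.3%) the summit lay inside the gene it was assigned to, upstream of an internal start of a longer gene. In 109 (8.93%) it lay inside another protein-coding gene, and in 818 (67.0%) it lay in neither. Of those 818, 500 (61.1%) had their upstream neighbour on the same strand, and the median distance from the TSS to that neighbour was 930 bp (quartiles 484.5 and 3530 bp). A protein-coding gene started on the opposite strand within 1000 bp upstream of the TSS at 135 peaks (11.1%), which the rule kept because the summit was not within 500 bp of both starts of such a pair. A non-coding gene did so at 87 (7.13%), since the rule counted protein-coding partners. The promoters are thus one-directional by the rule and not in every case by the annotation.

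Internal starts had peaks of much the same height as the others. The signal, which is the peak caller's own value for a peak, had a median of 172 at the 321 internal starts and 178 at the other 900, and 69.2% and 70.9% were found in both replicate lists. The summits at internal starts lay farther from the TSS, at a median of 196 bp against 111.5 bp. CGATA lay within 50 bp of 17.1% of their summits against 28.8%. These are descriptions with no test.

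Most of the 1134 genes had 1 such peak, 73 had 2 and 6 had 3 or more. The 6 were Moe, Ptpmeg2, Rtnl1, Top1, dnc and larp, which have between 5 and 9 annotated starts each. Rtnl1, which encodes a reticulon that shapes the endoplasmic reticulum, had 4, with signals of 105, 121, 473 and 890. Ptpmeg2, a protein tyrosine phosphatase, also had 4, with signals of 120, 193, 302 and 474. The highest of the 3 at dnc, the cyclic AMP phosphodiesterase gene, was 434, and the highest of the 3 at Top1, the topoisomerase I gene, was 253. The 3 at Moe, which links actin to the membrane, ran from 156 to 168. At larp, an RNA-binding protein gene, 2 of the 3 summits belonged to the same TSS, 352 and 139 bp upstream of it, with signals of 18.0 and 184, the first being one of the weak second summits.

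Summits gathered close to the TSS. The median distance was 131 bp upstream (quartiles 70 and 229 bp), 489 peaks lay within 100 bp and 842 (69.0%) within 200 bp. The bin from 51 to 100 bp held the most, 302 peaks, and also the highest median signal, 250, with an upper quartile of 1255. In the bin from 0 to 50 bp 187 peaks had a median of 154. From 401 to 450 bp 43 peaks had a median of 129 and an upper quartile of 191. The medians of the bins other than that from 51 to 100 bp lay between 129 and 195.

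**Figure D1:**
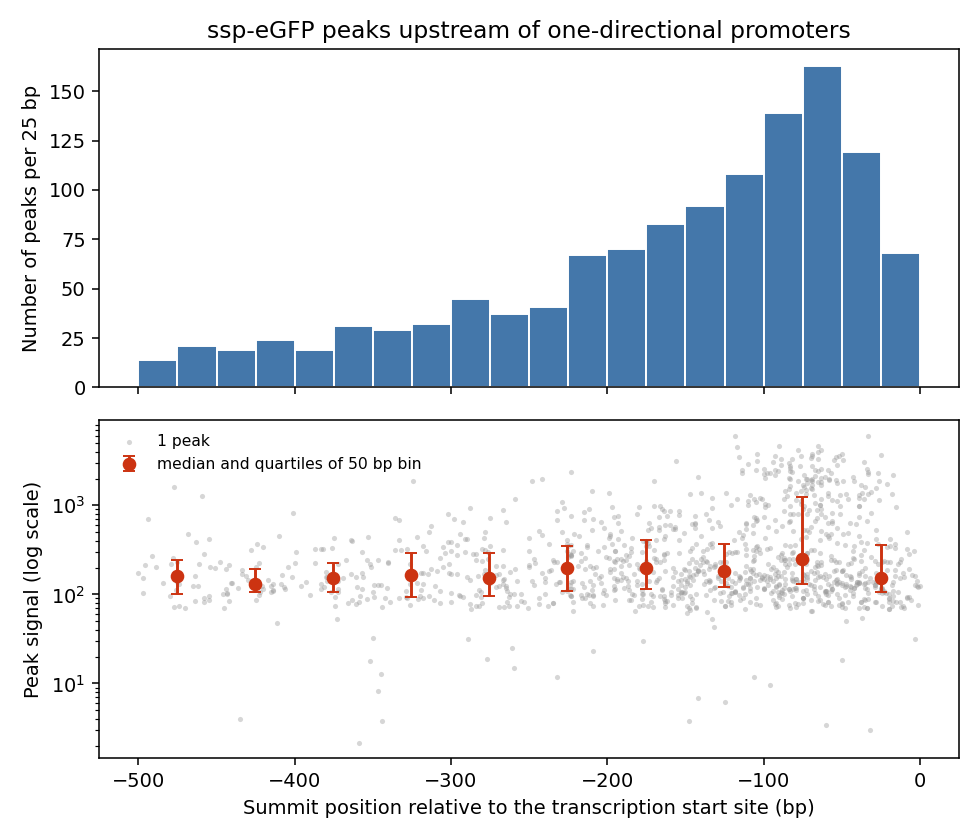
Top, number of peaks per 25 bp by the position of the summit relative to the TSS in bp. Bottom, the signal of each peak on a log scale (grey points) with the median and quartiles of each 50 bp bin (red). Peaks were most frequent, and the median (250) and upper quartile (1255) were highest, between 51 and 100 bp upstream.

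The limits of the window cut through peaks of ordinary height. Just inside the TSS limit lay Phlpp (0 bp, signal 124), Ptpmeg2 (1 bp, 120) and Cdep (1 bp, 75.5). Just outside it lay jigr1 (1 bp downstream, 92.2), Kdm5 (1 bp, 97.7) and CG17292 (3 bp, 76.9). At the far limit CG3348 (500 bp, 176), CG43736 (497 bp, 103) and jar (497 bp, 155) lay inside. Rgl (501 bp, 81.4), Cyp310a1 (503 bp, 204) and ITP (504 bp, 533) lay outside.

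Signals ran from 2.14 to 6042 with a median of 178 (quartiles 112 and 417). The 17 peaks under 20 were second summits, each with a stronger summit of the combined list within 500 bp. The same held for 25 of the 26 peaks under 50, and for 28 of the 1195 at or above 50. The weakest were at CG9760 (2.14), Cbs (2.99) and CG17261 (3.38). Cbs encodes cystathionine beta-synthase of the transsulfuration pathway, and a summit of 118 lay 204 bp from its weak one. Replicate peaks were matched by overlap of the intervals, so such a pair of summits can be matched to the same replicate peak. Among the upstream peaks 14 shared their interval with another one.

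Most of these peaks were found in each replicate on its own. Replicate 1 had an overlapping peak in its own list for 1005 (82.3%), replicate 2 for 958 (78.5%), and both did for 860 (70.4%). Over all 4914 peaks the share found in both lists was 56.5%. A further 145 were found in replicate 1 only, 98 in replicate 2 only and 118 (9.66%) in neither. The combined list was made from both replicates, so these overlaps are not independent of it.

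Presence in the replicate lists followed the signal. The median signal was 276 for peaks found in both lists, 107 for those found in 1 and 79.1 for those found in neither. Of the 305 weakest peaks 42 (13.8%) were found in both, and the share was 100% among the 306 strongest. In the groups of 305 between them it was 69.2% and 98.7%. Of the 118 found in neither, 113 overlapped a candidate in both ranked lists, with median signals of 46.2 and 36.8. The highest of them were CG15822 (129), nes (114), which encodes a phospholipid acyltransferase, and Glys (111), glycogen synthase.

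Where both lists had the peak, the signals kept their order. Over the 860 the log2 ratio of replicate 2 to replicate 1 had a median of -0.21 and an SD of 0.31. Replicate 1 was the higher at 660 and replicate 2 at 200, and a difference in scale between the lists is included in these values. Once the median ratio was set aside, 808 (94.0%) agreed within 1.5-fold. Spearman's rho across the 860 peaks was 0.945, a description over peaks of the same 2 libraries. Of the 860, 60 shared their replicate peaks with another summit, which left 830 distinct pairs of replicate peaks. Over those the median log2 ratio was -0.21, the SD 0.31 and rho 0.946. The SD of the log2 ratio was 0.33 over 42 of the 305 weakest peaks and 0.20 over the 306 strongest.

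**Figure D2:**
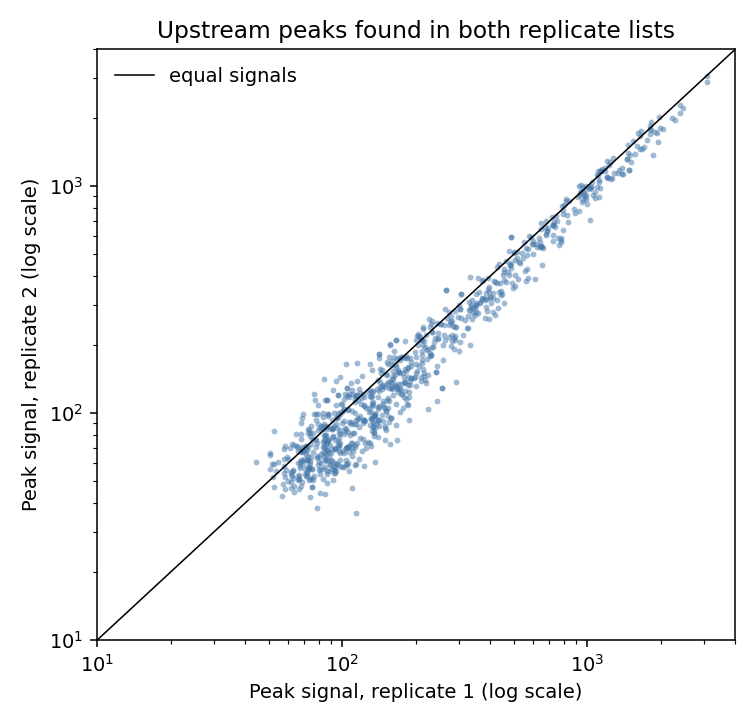
Peak signal in replicate 1 against replicate 2, both on log scales, for the 860 upstream peaks found in both lists, with a line of equal signals. Points lay mostly below the line (660 were higher in replicate 1), and their scatter narrowed towards high signals.

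The farthest from the common ratio were peaks of moderate height. CG46385 had 113 in replicate 1 and 36.1 in replicate 2, a log2 ratio of -1.65. Rlip had 110 and 46.5, and Phs had 136 and 60.9. In the other direction prod, which encodes a protein bound to satellite DNA, had 84.0 and 141, a log2 ratio of 0.75. mRpS25 had 76.6 and 122, and Calx, the sodium and calcium exchanger gene, had 52.5 and 83.4. The replicates' summits were a median of 14 bp apart (upper quartile 27 bp), and 776 pairs (90.2%) lay within 50 bp. The replicate 1 summit was itself upstream of the same TSS within the window at 839 of the 860, and the replicate 2 summit at 838.

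The highest signals were at genes of very different function. The 20 strongest of the peaks found in both lists had signals of at least 3342 and summits 25 to 118 bp upstream of the TSS, with a median of 69 bp. In both replicates all of them were high, and the log2 ratio ran from -0.31 to 0.07. Among all 4914 peaks, 20 of the strongest 25 and 71 of the strongest 100 were upstream of a one-directional promoter.

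Chromatin and transcription genes were among them. MED21, a subunit of the Mediator that joins regulators to RNA polymerase II, had 3077 in replicate 1 and 2864 in replicate 2, with 5928 in the combined list. Clamp, a zinc-finger protein of dosage compensation that binds GA repeats, had 2392 and 2099. Hcf, the fly host cell factor of chromatin complexes, had 2028 and 1779. At d4, which encodes a PHD finger protein, the values were 1825 and 1912. In each of these the replicates differed by little beside the range of the whole set.

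Mitochondrial genes were also present. Fis1, which acts in mitochondrial fission, had 2219 and 2000. ND-AGGG, a subunit of respiratory complex I, had 1952 and 2013, and UQCR-11, a subunit of complex III, had 1821 and 1768. Signalling and membrane genes included Crk, an adaptor protein with SH2 and SH3 domains (1805 and 1848), PlexB, a receptor for semaphorins (1802 and 1697), and bdg, of the neurotransmitter transporter family (1945 and 1564). Gyf, a regulator of translation, had 2444 and 2199. The strongest of all, l(3)80Fg, had 3064 and 3067.

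The remaining genes of the 20 were CG40045, dmpd, CG14464, RNASEK, Alg-2, CG40228, CG17883 and Rnf11, with combined signals from 3342 to 4671. The ssp gene itself had no such peak, and the nearest summit to a TSS of it was 6608 bp away.

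Peaks on chromosome 4 and near the centromeres were higher than elsewhere. Chromosome 4 is a small, largely heterochromatic chromosome whose genes are nonetheless expressed. It held 37 of the peaks, with a median signal of 1324, and 29 of them (78.4%) were among the 306 strongest peaks. Of its 80 protein-coding genes 35 (43.8%) had such a peak, against 7.02% to 10.5% on the other arms. The 137 peaks in the 5 Mb at the centromeric end of the other arms had a median of 525, and 54.0% were among those 306. The 1047 elsewhere had a median of 164, and 19.4% were. These regions held 16 of the 20 strongest peaks and were defined from the data, so no test was made.

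**Figure D3:**
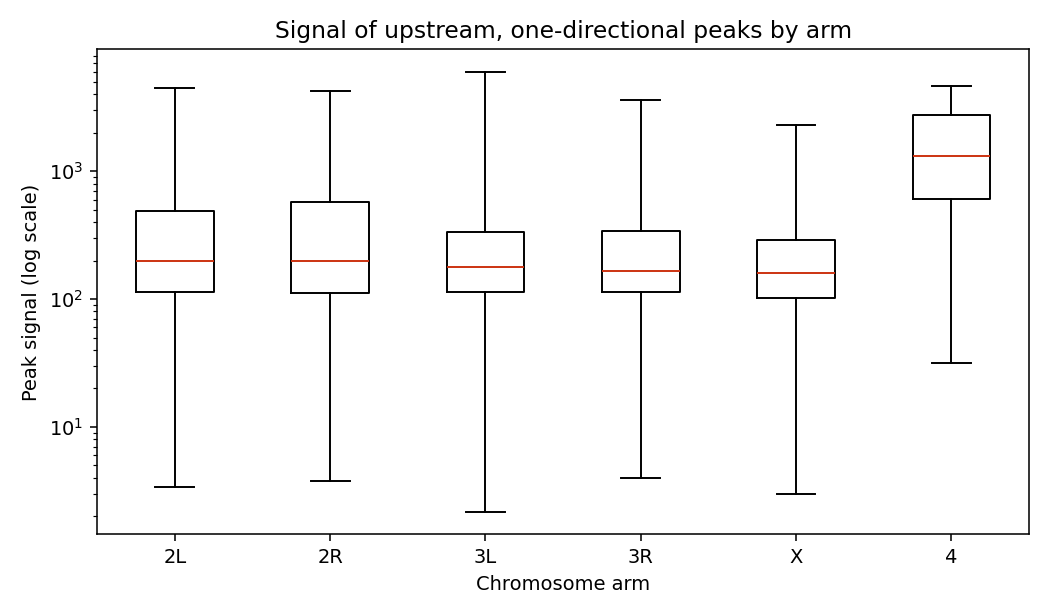
Signal of the 1221 upstream peaks on a log scale by chromosome arm, with the median (red), the quartiles (box) and the lowest and highest value (whiskers). Chromosome 4 had a median of 1324, and the medians of the other arms ran from 159 to 198.

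Genes of cytosolic ribosomal proteins and of translation factors had such peaks more often than the average gene, and those of mitochondrial ribosomal proteins and aminoacyl-tRNA synthetases less often. Of all 13945 protein-coding genes of the 6 arms 8.13% had one, and the gene lists are given beside that share with no test. Of 86 cytosolic ribosomal protein genes 30 (34.9%) had one, and a further 24 had a divergent peak, beside 1705 of all 13945 genes. The median signal over those 30 was 198, close to the 185 over all genes with an upstream one-directional peak. The highest of the 30 were RpS3A (1669 in replicate 1 and 1457 in replicate 2), RpL15 (1460 and 1397), RpL38 (1204 and 1288) and RpL10 (1102 and 1165). RpS3A lies on chromosome 4, and RpL15 and RpL38 lie in the centromeric ends, where peaks were higher. Of 51 translation factor genes 10 (19.6%) had one. They were led by eEF1alpha1, which brings aminoacyl-tRNA to the ribosome (1395 and 1132), and eIF4B, an initiation factor (1234 and 1273).

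Other housekeeping lists had smaller shares than cytosolic ribosomal proteins and translation factors, some below the average of 8.13% and some slightly above it. Many of their genes were head to head with another, as were 53 of the 86 cytosolic ribosomal protein genes. Of all 13945 protein-coding genes 5052 have a divergent partner and 1705 had a divergent peak. The part of gene arrangement in these shares was not tested. Of 75 mitochondrial ribosomal protein genes 3 (4%) had an upstream one-directional peak, at mRpL41, mRpS5 and mRpS25. Of the same 75, 59 have a divergent partner and 23 had a divergent peak. None of 33 aminoacyl-tRNA synthetase genes had an upstream one-directional peak, and 13 had a divergent peak. Of 84 genes of the respiratory chain and ATP synthase 6 (7.14%) had one. They included ND-49 (1151 and 1187) and ND-20 (1058 and 910). Proteasome genes gave 2 of 32 (6.25%), splicing genes 2 of 30 (6.67%) and RNA exosome genes 1 of 13 (7.69%). Nuclear pore genes gave 2 of 24 (8.33%), vacuolar proton ATPase genes 3 of 33 (9.09%) and Rab GTPase genes 3 of 31 (9.68%). Nup107, of the nuclear pore scaffold, had 621 and 537, and Vha16-1, of the proton channel, had 602 and 500.

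Of the lists that touch the background on sunspot, the cyclin, E2F and DREAM genes and the Wingless pathway were above the average share, and the DNA replication genes were below it. Of 34 cyclin, E2F and DREAM genes 9 (26.5%) had a peak, namely Cdk2, CycB, CycB3, CycD, CycE, CycH, CycY, Dp and Myb. CycD, the partner of Cdk4 in growth, had 418 and 272. Dp, which pairs with E2F proteins, had 189 and 174. Myb, part of the complex with MuvB, had 160 and 145, and CycB3, a mitotic cyclin, had 141 and 93.4. Of 22 Wingless pathway genes 5 (22.7%) had one. The casein kinase gene gish had 454 and 407, the coactivator gene lgs had 348 and 270, the corepressor gene gro had 214 and 240, and the kinase gene sgg had 162 and 187. The other was nkd, a feedback inhibitor. Of 31 DNA replication genes 2 (6.45%) had one, Orc2 (72.8 and 85.4) and PolA1, found in replicate 2 only (57.5).

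Among transcription lists, 6 of 25 promoter and insulator protein genes (24%) had a peak, and those were Clamp, Hcf, mod(mdg4), Top2, BEAF-32 and row. The insulator gene mod(mdg4) had 216 and 146, and Top2, topoisomerase II, had 190 and 138. Mediator genes gave 4 of 25, with MED1 (392 and 351), MED26 (339 and 316) and MED4 (98.2 and 84.5) beside MED21. RNA polymerase and general transcription factor genes gave 6 of 55, among them Taf3 (179 and 126) and Polr2F (99.8 and 90.4).

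The segmentation and Hox, chemosensory receptor and cuticle protein lists had 1 such peak or none, beside 8.13% over all protein-coding genes. Of 27 segmentation and Hox genes 1 (3.70%) had such a peak, bcd, the anterior determinant, with 122 in replicate 1 and 58.5 in replicate 2. That list is small, and its share was not tested against the average. None of 180 chemosensory receptor genes and none of 96 cuticle protein genes had one.

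**Figure D4:**
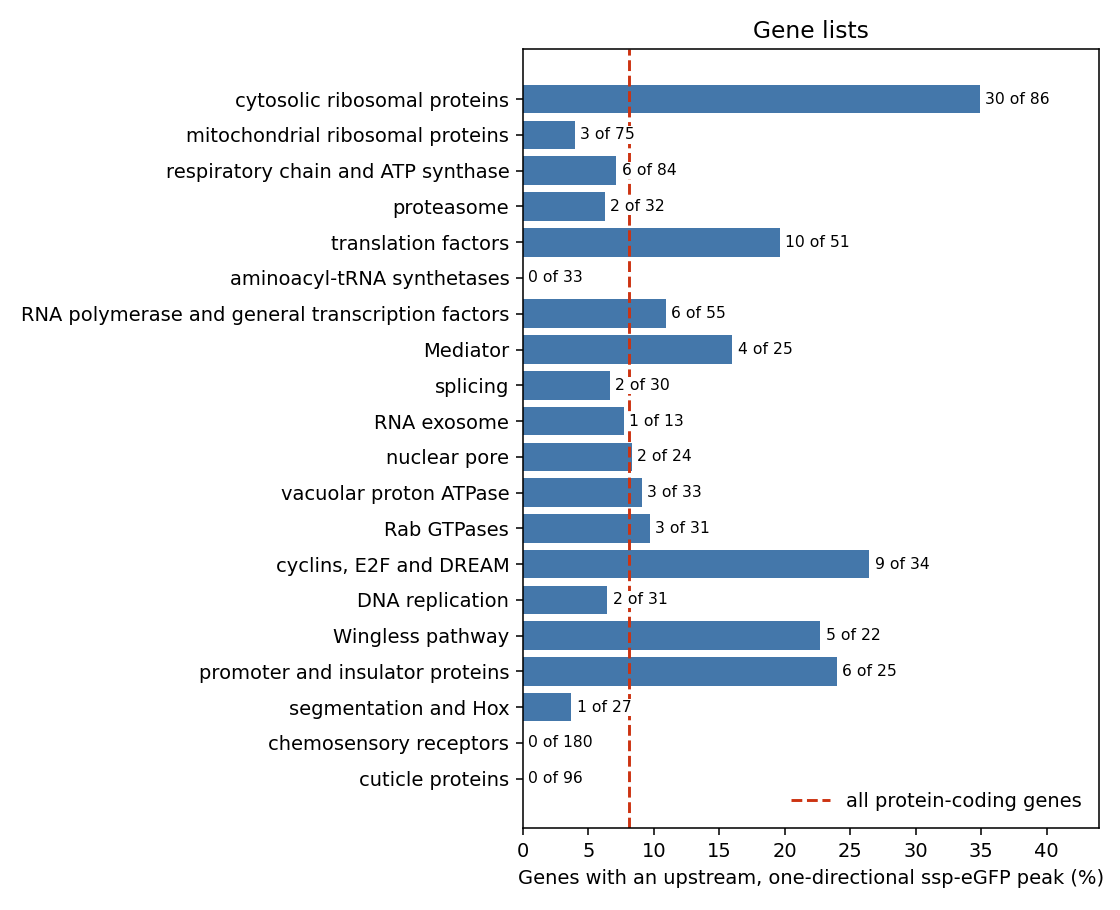
Share of the genes of each of 20 lists with a peak upstream of a one-directional promoter, in percent, with counts beside the bars and a dashed line at the share over all protein-coding genes (8.13%). Cytosolic ribosomal protein genes had the highest share, 30 of 86.

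These peaks were higher and more often found in both replicates than peaks just downstream of a TSS, and no difference from divergent promoter peaks passed the test. The share found in both lists was 70.4% against 72.1% at divergent promoters, with an odds ratio of 0.921 (0.761 to 1.11 at 95%, Fisher's exact test across peaks, adjusted p = 0.410). Against downstream peaks, with 49.1%, the odds ratio was 2.47 (1.85 to 3.31, exact test, adjusted p = 4.00e-09). Among peaks above the median signal it was 1.33, which did not pass the exact test. The share above the median signal of the whole list was 64.9%, against 62.7% at divergent promoters, an odds ratio of 1.10 (0.923 to 1.32, exact test, adjusted p = 0.292). Against downstream peaks, with 37.3%, it was 3.12 (2.32 to 4.20, exact test, adjusted p = 5.05e-14). The p-values compare peaks of the same libraries, not embryos.

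The count of sequence motifs that differed between these peaks and the other promoter peaks depended on the window. Within 50 bp of the summit, of 32 comparisons, over 16 motifs on either strand and 2 classes of promoter peak, 1 passed an adjusted p of 0.05 (3.12%), and 6 had an unadjusted p under it. The core of the pause button, CGGACG, is a motif just downstream of paused promoters. It was in 0.573% of these peaks and in 3.64% of downstream peaks (odds ratio 0.153, 0.0548 to 0.426, Fisher's exact test, adjusted p = 0.0204). By the rule the summits of these 2 classes lie on opposite sides of the TSS, so their windows cover different parts of the promoter. In windows centred 200 bp from the upstream summits towards the gene the share was 4.26%. The test thus cannot separate the position of the window from a difference between the peaks. No motif passed with the conservative list, without replicate 1, with the 5'-most TSS, among stronger peaks or within 25 bp of the summit. With the window of 300 bp 6 comparisons passed, and with 100 bp each side of the summit 9 did. In the last, CGATA was in 41.3% of these peaks and 51.3% of divergent ones (odds ratio 0.668, exact test, adjusted p = 5.72e-05). Within 50 bp of the summit the median GC content was 34.7% in these peaks, 31.7% in divergent peaks and 41.6% in downstream peaks. Its part in the results was not tested.

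CGATA, the core shared by sites of Dref and BEAF-32, was the most frequent of the promoter motifs. It was in 314 peaks (25.7%), in 14.6% of the 4513 candidates at the same kind of position that failed the threshold and in 13.7% of 8893 one-directional promoter windows of the same length. Centred 100 bp from the summit towards the gene, it was in 23.8%, and 100 bp away from the gene in 15.3%. In windows 200 to 400 bp from the summit it was in 11.1% to 15.0%. The Dref site TATCGATA, which contains CGATA on both strands, was in 4.42%, against 1.53% of failing candidates and 0.990% of promoter windows. GAGAG, bound by GAGA factor, was in 8.35%, against 16.0% and 15.2%. TATAAA, the sequence of the TATA box, was in 20.2%, against 11.6% and 17.4%. It lay a median of 157.5 bp upstream of the TSS, with 153 on the strand of the gene and 140 on the other. The match is thus to the sequence alone, not to a box at a set place. The pioneer factor Zelda's CAGGTA was in 1.06%, against 2.19% and 2.41%. The median GC content was 34.7% in these peaks, 45.5% in failing candidates and 36.6% in promoter windows. The summits lay a median of 131 bp upstream of the TSS in these peaks and 202 bp in failing candidates. The promoter windows were centred 131 bp upstream. The part of GC content and of distance in these differences, and in those given below, was not tested.

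The sites linked to the background on sunspot, those of E2F, TCF and CHR, had shares near those of the promoter windows. The E2F site TTTNNCGC was in 5.98% of the peaks, in 7.73% of failing candidates and in 7.05% of promoter windows. CTTTGAT, the site of the Wingless effector TCF, was in 1.88%, 1.55% and 1.77%, and TTTGAA, the cell cycle element CHR, in 17.0%, 9.77% and 17.7%. Some of the other motifs were farther from the promoter windows. Motif 7 was in 4.59%, 2.08% and 1.19%, Motif 6 in 0.655%, 0.487% and 0.214%, and GGTCACACT, the core of Motif 1, in 1.31%, 0.665% and 0.304%. The repeat CACACACA was in 0.573%, 2.70% and 1.79%, the E-box CACGTG in 0.901%, 1.26% and 1.17%, the E-box CAGCTG in 3.77%, 5.47% and 4.27%, and the Ewg site TGCGCATG in 0.328%, 0.554% and 0.517%. These shares have no test.

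Other 6-mers more frequent here than in failing candidates were CGATAG (11.8%, 3.90% of candidates, 2.79% of promoter windows) and TATCGA (15.9%, 6.29% and 5.23%). The rest of the 10 with the highest ratio were of A and T with at most 1 other base. ATATTA, in 20.5% of the peaks and 7.53% of candidates, was in 14.8% of promoter windows. Among the 10 8-mers with the highest ratio, TGGAAACA and AGTGTGAA were in 2.05% and 2.38% of the peaks. They were in 0.443% and 0.532% of candidates, and each was in 0.450% of promoter windows. AGTGTGAA contains TGTGAA. The rest of these 8-mers were of A and T with at most 1 other base. They were led by ACATTAAA (2.05%, 0.399% of candidates, 1.34% of promoter windows).

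Of the 16 motifs, 2 (12.5%) went with signal within these peaks, both with lower signal, and 3 had an unadjusted p under 0.05. With Motif 7, a core promoter element of broadly active genes, 13 of 56 peaks (23.2%) were above the median signal, against 51.2% without it (odds ratio 0.288, 0.153 to 0.541, Fisher's exact test, adjusted p = 0.000801). The median signal was 124 with it and 184 without. With the E-box CAGCTG 12 of 46 (26.1%) were above, against 50.9% (odds ratio 0.341, 0.175 to 0.664, exact test, adjusted p = 0.0107). TATAAA passed with higher signal under 2 alternatives, the window of 300 bp (odds ratio 1.54, exact test, adjusted p = 0.0205) and 100 bp each side of the summit (1.44, adjusted p = 0.0207). The call of Motif 7 was lost without replicate 2, where GAGAG passed instead (odds ratio 0.375), among stronger peaks and within 25 bp. The call of CAGCTG was lost in the same cases and with the conservative list, without replicate 1 and with the 5'-most TSS. CGATA did not pass, with 51.6% of 314 peaks above the median against 49.4% (odds ratio 1.09, 0.845 to 1.41, exact test, adjusted p = 0.912).

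TGTGAA and GTGGAA went the other way, towards high signal. At least 1 of them lay within 50 bp of the summit in 235 peaks (19.2%), against 11.4% of failing candidates and 11.0% of promoter windows. The share was 31.7% among the 306 strongest peaks and 15.7%, 12.1% and 17.4% in the groups of 305 below them, from the weakest up, and 16 of the 20 strongest peaks held 1. The median signal was 319 with TGTGAA and 170 without, and 302 with GTGGAA and 173 without. Outside chromosome 4 and the centromeric ends the medians were 238 and 160 for TGTGAA and 224 and 162 for GTGGAA. There 65.1% of peaks with TGTGAA were above the median signal, against 48.2% without it. For GTGGAA the difference was smaller, 58.5% against 49.2%, and the interval of its odds ratio included 1 (1.46, 0.922 to 2.30). Since the sequences were picked on these peaks, the differences have no test. Other 6-mers had a higher ratio of shares between the 306 strongest and the 305 weakest peaks. TGAGAA was in 11.8% and 2.62%, GGTATA in 10.1% and 2.95%, CTTGCA in 8.82% and 2.62%, and ATCGAA in 13.7% and 4.59%. For TGTGAA the shares were 18.6% and 7.87%.

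In all 10 peaks held both 6-mers. The form GTGNGAA, which overlaps TGTGAA where the open base is T, was in 114 peaks (9.34%), against 5.58% of failing candidates and 4.72% of promoter windows. The median signal was 423 with it and 169 without. Like the 6-mers it was picked on these peaks, so its values and the positions and directions given next have no test. Among the 306 strongest peaks TGTGAA was in 18.6% at the summit and in 5.56% to 10.5% of windows 200 to 400 bp away, and GTGGAA was in 15.0% and in 3.92% to 6.86%. Among the 305 weakest both were in 7.87% at the summit. Among the 306 strongest TGTGAA read in the direction of the gene in 47 peaks and against it in 13. In the promoter windows it read with the gene in 290 and against it in 248. GTGGAA read with the gene in 33 of them and against it in 13, and in promoter windows in 228 and 240.

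**Figure D5:**
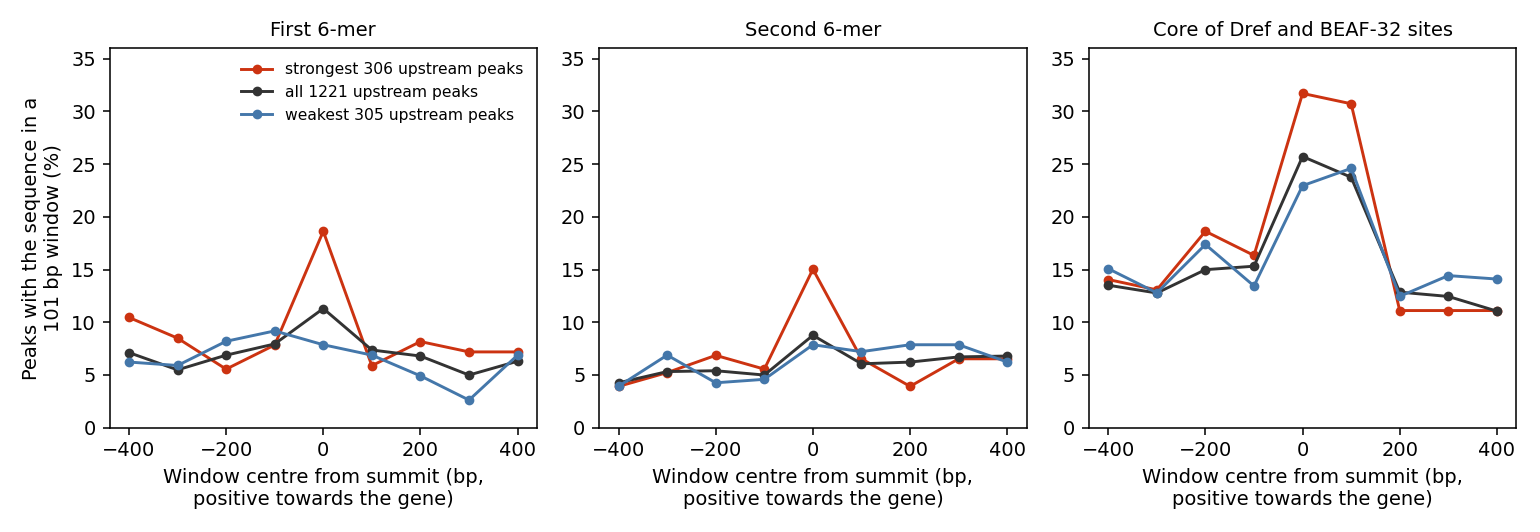
Share of peaks, in percent, that hold a sequence in windows reaching 50 bp each side, centred at steps of 100 bp from the summit, positive towards the gene, for all upstream peaks and for the 306 strongest and the 305 weakest. The first 6-mer is TGTGAA and the second GTGGAA, with 18.6% and 15.0% at the summit in the strongest. Both were picked by their frequency in the strong peaks, which favours a high share there.

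Peaks that were not used to pick the sequences were tested too. Of 9 tests 2 passed, for TGTGAA and for GTGNGAA, both in the divergent class. In the divergent promoter peaks 58 of 83 with TGTGAA (69.9%) were above the median signal of that class, against 47.9% without it (odds ratio 2.52, 1.55 to 4.11, Fisher's exact test, adjusted p = 0.000588 over 9 tests). With GTGNGAA, which overlaps TGTGAA, 51 of 71 divergent peaks (71.8%) were above it, against 48.1% (odds ratio 2.76, 1.61 to 4.70, exact test, adjusted p = 0.000588). For GTGGAA in the divergent peaks the odds ratio was 1.27 (0.731 to 2.21, exact test, adjusted p = 0.595). In downstream peaks the odds ratios were 2.10 for TGTGAA, 0.880 for GTGGAA and 1.93 for GTGNGAA, and none passed. Among peaks farther than 500 bp from a TSS the odds ratio was 1.20 for TGTGAA (0.901 to 1.61, exact test, adjusted p = 0.563). There it was 1.08 for GTGGAA and 1.14 for GTGNGAA, and neither passed. Of the 1221 upstream peaks, 753 (61.7%) held neither of the 2 sequences and no CGATA.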

How the data were processed

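The authors made the peak lists on dm6, for each replicate and for both, with ranks and a threshold from the irreproducible discovery rate, per the labels and the deposited notes. The deposited signal is the peak caller's value for a peak. No source states a scaling between lists. Summits came from the deposited summit offsets. Signals served to describe and order peaks. Aligner and peak caller: not given in the sources used here. Depth is unknown, since the lists hold no counts. No label ties 16 more columns of the whole-series ranked lists to a sample, so they were not read.

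Summits were placed against all TSSs of protein-coding genes of Ensembl release 115 (BDGP6 annotation 54), and coordinates count from 1. At 31 of the upstream peaks more than 1 gene was equally near, and 1 of them was named by a fixed order. Replicate overlap was 1 shared base. Failing candidates were the ranked candidates of the combined list that overlapped no thresholded list, and 4513 of 120106 met the same positional rule. Promoter windows reached 50 bp each side of a point 131 bp upstream of the 5'-most TSS of genes with no divergent partner. Two-sided Fisher's exact tests compared shares, in SciPy 1.17.1, with Woolf 95% intervals and Benjamini-Hochberg adjustment within each family. The motif search was tested on simulated data.

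The members, gene lists and motifs were chosen with earlier results of these data known. Named peaks were the 20 strongest found in both replicate lists, up to 4 of each gene list, ssp, motifs past the threshold with the Dref site, and the 10 6-mers and 10 8-mers with the highest ratio of shares. Further ones were the 3 nearest each limit, the 3 weakest and the 3 with the largest replicate difference each way. Genes with 3 or more peaks, the highest found in neither list and the 6-mers compared by signal were named after their values were seen. Alternatives were the conservative list, single-replicate lists, the 5'-most TSS, partners of any gene type, a window of 300 bp, stronger peaks, 50% reciprocal overlap, summits within 100 bp and motif windows of 25 and 100 bp each side.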

Additional observations from a re-analysis of the deposited data

How the results depend on the processing

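The number of peaks was 1221 and ran from 970 to 1200 under the alternatives other than the window of 300 bp (1220). Those 1220 were not the same peaks. The window of 300 bp drops summits farther upstream and also narrows the exclusion around divergent pairs. Comparisons under it are thus between differently composed classes. It was 970 without replicate 1, 1038 without replicate 2, 987 with the 5'-most TSS, and 900 with internal starts left out, which was added after the data were seen. Both comparisons with downstream peaks kept their call, except that the odds ratio for presence in both lists was 1.33 among stronger peaks. The comparisons with divergent peaks had no call and changed side of 1: for presence in both lists the odds ratio was 1.03 with the 5'-most TSS, 1.09 with 50% reciprocal overlap and 1.10 with summits within 100 bp. For signal it ranged from 0.949 to 1.13 over the single-replicate lists and was 0.999 with the window of 300 bp. CGATA against divergent peaks was 0.848 and became 1.05 with the 5'-most TSS, 1.11 with the window of 300 bp and 1.18 among stronger peaks, and it passed at 0.668 within 100 bp. Motif calls between classes numbered 1 and became 0 with the conservative list, the 5'-most TSS, stronger peaks or 25 bp, 6 with the window of 300 bp and 9 with 100 bp, and 0 to 1 over the single-replicate lists. Calls of motif and signal numbered 2, rose to 3 with the window of 300 bp or 100 bp each side, where TATAAA joined them, and became 1 with the conservative list or the 5'-most TSS, 0 among stronger peaks or with 25 bp, and 1 in each single-replicate list. The cause was not tested. Presence in both lists was not computed for single-replicate lists, nor the share above the median among stronger peaks, which are all above it. No paired analysis was possible because the study has 1 group. Depth is unknown, and 2 replicates limit what the weak peaks can show.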
